A study of Mus musculus with 24 samples.

Results

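Cytokine and growth factor receptors switch on the MAPK and JAK-STAT pathways, and both pathways induce their own inhibitors. The genes described here are 10 such feedback inhibitors, read across 7 groups of mouse blood progenitors on 24 Affymetrix expression arrays. A gene was taken as a member where a probe set carried its symbol alone in the platform annotation. This gave 9 of the 10 members on 15 probe sets, among 12393 genes on the arrays. Dusp5 had no such probe set and was not analysed here.

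All samples were labelled C57BL/6 mouse. Granulocyte-macrophage progenitors (GMP) were transduced with MOZ-TIF2 (MT2, 4 arrays), NUP98-HOXA9 (NHA9, 3 arrays), AML1-ETO (AE, 4 arrays) or the empty GFP vector (GFP, 3 arrays), and GFP-positive cells were taken 36 hours later. The other groups were sorted leukemic GMP from MOZ-TIF2 leukemia (L-GMP, 3 arrays), untransduced LSK cells, the fraction that holds the stem cells (LSK, 3 arrays), and untransduced GMP (4 arrays). The oncogene groups were set against GFP to find early changes, and LSK, L-GMP and GFP were set against untransduced GMP. The sources used here do not say whether replicates came from separate animals or cultures, or whether cells were pooled, so p-values measure only the spread between these arrays.

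Dusp1, Dusp2, Dusp5 and Dusp6 encode phosphatases that remove the activating phosphates from MAP kinases. Spry2 and Spred1 act further up and hold back the step from receptors through Ras to Raf. Socs1, Socs2, Socs3 and Cish encode SH2-domain proteins that bind activated cytokine receptors or JAK kinases and limit STAT signalling. In myeloid progenitors these pathways carry the signals of Kit, Flt3 and the GM-CSF, G-CSF and IL-3 receptors.

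Every value below is a log2 GCRMA expression level, and a difference is the first named group minus the second. A level of 60 on the linear scale (5.91 on the log2 scale) was taken as the lower limit of detection, and between 46.1 and 48.3% of probe sets exceeded it per array. A gene is read on its probe set with the highest mean. Adjusted p-values are limma's with Benjamini-Hochberg adjustment over all probe sets tested, with 0.05 as the threshold. The 7 listed GMP markers on the arrays were over 60 in every group. In LSK cells 5 of the 7 listed stem cell markers were, while Mecom and Slamf1 were under 60 there too. The arrays carried a tag in their names: A on 15, B on 5 and none on 4. All GFP arrays and AE replicate 1 carried tag A and AE replicates 2 to 4 carried tag B; GMP replicate 4 and MT2 replicate 4 also carried B, and LSK replicate 3, NHA9 replicate 3 and L-GMP replicates 2 and 3 carried none. L-GMP replicate 1 had the highest 3′ minus 5′ difference of the Gapdh control probes, 4.82 against 2.50 to 4.51 on the other arrays. The lowest correlation between arrays of 1 group was 0.946 in L-GMP and 0.950 in untransduced GMP.

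Socs3 and Dusp1 differed most widely among the 7 groups, by 6.58 and 5.18 between the highest and lowest group mean. Dusp2 spanned 2.77 and Dusp6 2.16, and Spred1, Spry2 and Cish stayed within 1.29. An F test over the 7 groups called 6 of the 7 members it tested, all but Spry2, where 59.1% of all tested genes were called. Socs1 and Socs2 were not over 60 on enough arrays to be tested in any comparison. In the 9 comparisons of 2 groups, 60 differences between member levels were tested and 26 were called, 16 higher and 10 lower. The comparisons share groups, so these differences are not independent. Of all tested genes, 0.188% were called in NHA9 against GFP, the lowest share. In MT2 against AE, with the highest share, 17.9% were lower and 12.1% higher. The share for each comparison is given below.

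Among the sorted cells, 6 of 7 tested members were higher in LSK than in untransduced GMP, where 11.2% of all tested genes were higher and 5.27% lower. The median difference of the 7 was 1.61, against 0.06 over all tested genes. In L-GMP, Dusp6 and Socs3 were higher than in untransduced GMP, 2 of 7 members with 3.62% of all genes higher and 1.61% lower. GFP cells differed from untransduced GMP in both directions: Socs3 and Cish were higher and Dusp1 and Dusp2 lower, with 8.77% of all genes higher and 7.83% lower. These 3 comparisons share the 4 untransduced GMP arrays. Against GMP, Socs3 entered each test through the other group alone, and Dusp1 and Dusp6 entered GFP against GMP through GMP alone. Dusp1 entered its tests with AE, and Dusp6 those of oncogenes against GFP, through the oncogene arrays alone, so counts cover tested members, not all members.

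After transduction, AE cells had 4 of 7 tested members above GFP (Dusp1, Dusp2, Spry2 and Spred1), where 9.68% of all tested genes were higher and 2.43% lower. The median difference of the 7 was 0.70, against 0.10 over all tested genes. MT2 cells had Spred1 higher and Cish lower among 6 tested members, where 8.8% of all genes were higher and 3.22% lower. The median difference of the 6 was 0.29, against 0.06 over all tested genes. NHA9 cells had 0 of 6 members called, with 0.188% of all genes called; limma gave 0 members at an unadjusted p under 0.05 and the methods' t-test gave 0 after adjustment. With the 3 oncogenes as 1 group against GFP, limma called 0 of 7 members and 0% of all genes, while Spry2 (difference 0.54, adjusted p = 0.447) and Spred1 (difference 0.56, adjusted p = 0.291) had an unadjusted p under 0.05. The methods' t-test also called 0 members there. These comparisons share the 3 GFP arrays.

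The oncogenes also differed from each other. Against AE, MT2 cells had 4 of 7 members lower (Dusp1, Dusp2, Socs3 and Cish), where 17.9% of all genes were lower and 12.1% higher. Against AE, NHA9 cells had Dusp1 and Dusp2 lower, 2 of 7, where 5.1% of all genes were lower and 3% higher. Against NHA9, MT2 cells had Spry2 higher and Socs3 lower among 6 members, where 3.38% of all genes were higher and 4.65% lower.

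**Figure D1:**
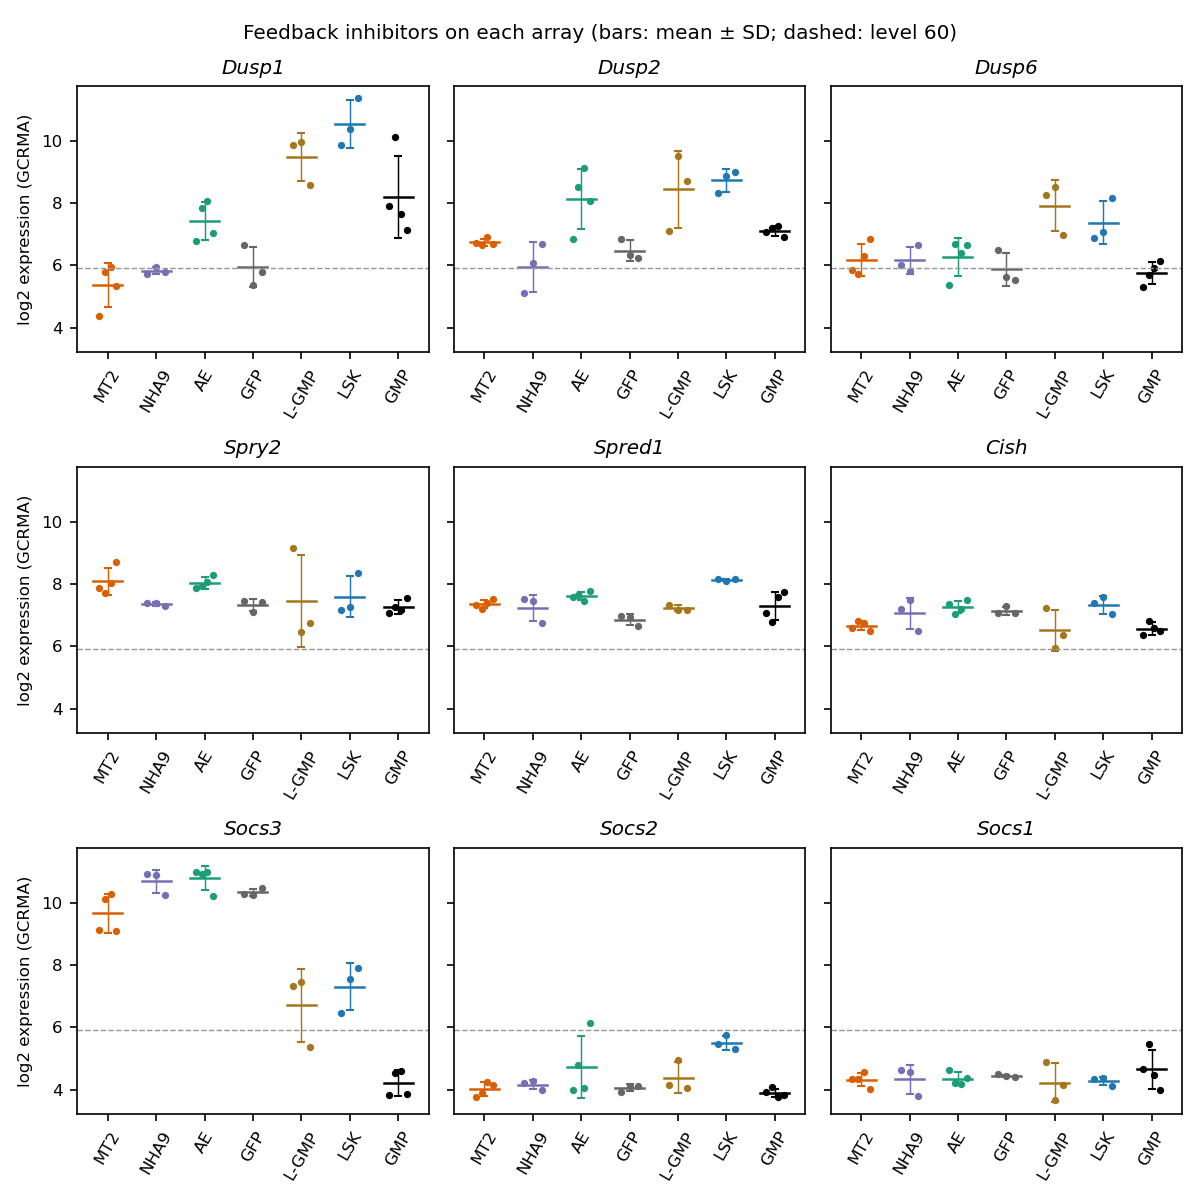
Log2 GCRMA level of each member on every array (vertical axis), by group (horizontal axis), on its main probe set. Points are arrays, bars the group mean ± SD, and the dashed line is the level of 60. Socs3 lies between 9.09 and 11.01 on the 14 transduced arrays and at 7.91 or less on the others, and Dusp1 lies highest in LSK cells.

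**Figure D2:**
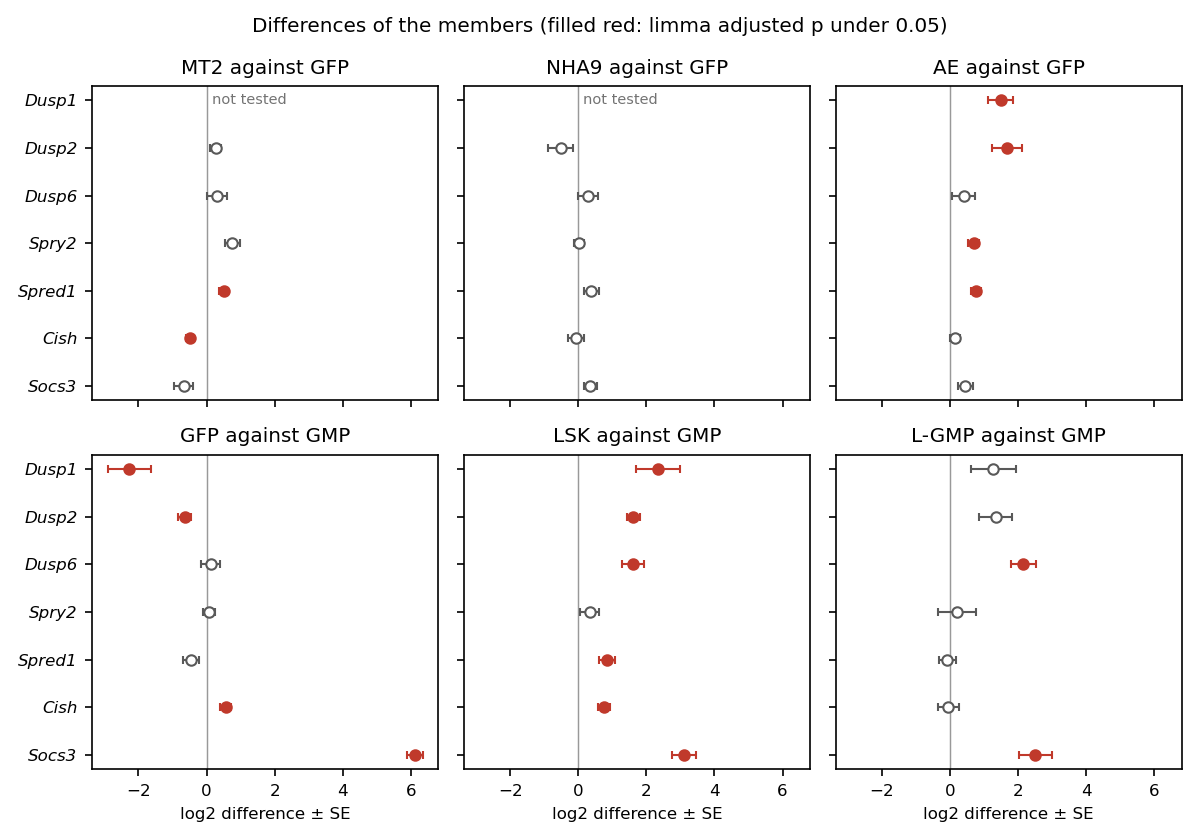
Log2 difference ± SE (horizontal axis) of the 7 members over the limit of detection, for 6 comparisons. Red filled points passed the adjusted p of 0.05. Those in LSK against GMP lie right of 0, while those in GFP against GMP lie on both sides, with Socs3 at 6.12.

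Dusp1 encodes MKP-1, a nuclear phosphatase of p38, JNK and ERK and itself an immediate early gene. Its levels were 4.39, 5.79, 5.94 and 5.34 in MT2 cells, 5.74, 5.95 and 5.79 in NHA9 cells, 6.78, 7.84, 8.07 and 7.03 in AE cells, and 6.65, 5.38 and 5.79 in GFP cells. In the sorted cells they were 9.88, 9.97 and 8.60 in L-GMP, 9.87, 10.38 and 11.38 in LSK, and 7.90, 10.13, 7.65 and 7.15 in untransduced GMP. All AE arrays were above all GFP, NHA9 and MT2 arrays, which sat around the limit of detection. The order of means was LSK, L-GMP, GMP, AE, GFP, NHA9 and MT2, and the only neighbours with separate ranges were AE and GFP.

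The Dusp1 difference between AE and GFP was 1.49 (SE 0.36, 2.81-fold, adjusted p = 0.0309). MT2 cells were at least 2.88-fold lower than AE (difference -2.07, adjusted p = 0.000748), and NHA9 cells likewise at least 2.88-fold lower (difference -1.61, adjusted p = 0.0193). Dusp1 was not tested in MT2 or NHA9 against GFP, since each of these 3 groups had 1 array over 60. LSK cells were 5.05-fold above untransduced GMP (difference 2.34, SE 0.65, adjusted p = 0.0414) and GFP cells 4.81-fold below it (difference -2.26, SE 0.64, adjusted p = 0.0411). L-GMP missed the threshold (difference 1.28, SE 0.66, adjusted p = 0.373). GMP replicate 2 stood above the other GMP arrays and reached into the LSK and L-GMP ranges.

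Leaving out GMP replicate 2 gave Dusp1 differences of 2.98 for LSK (adjusted p = 0.000587), 1.92 for L-GMP (adjusted p = 0.0381) and -1.62 for GFP (adjusted p = 0.00329). The LSK call was lost without any 1 of the other LSK or GMP arrays, and its adjusted p ranged from 0.000587 to 0.219 over the alternatives. The GFP call was lost without GMP replicate 1 or 3 or any GFP array (range 0.00329 to 0.165). With tag A arrays alone, where AE is replicate 1, AE against GFP was 0.84 (adjusted p = 0.198, range 0.00821 to 0.198), MT2 against AE -1.41 (0.0795, range 0.000388 to 0.0795) and NHA9 against AE -0.94 (0.348, range 0.0069 to 0.348). The AE against GFP call was also lost without AE replicate 2 or 3 or GFP replicate 2 or 3, and the NHA9 against AE call without NHA9 replicate 1 or 2 or AE replicate 2 or 3. With the tag as a factor, AE against GFP was 1.64 (adjusted p = 0.129), MT2 against AE -2.16 (0.00892) and NHA9 against AE -1.82 (0.2).

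The promoter of Dusp1 is shown because its level ran alongside those of immediate early genes on these arrays. The window runs from 250 bases before to 50 after the RefSeq start, at chr17:26508423-26508722 on the minus strand of GRCm38.p6. The capitals mark the only full cAMP response element, TGACGTCA, among the 9 members' windows that RefSeq held. It begins 143 bases before the start, and 1.79% of 32851 windows of that length hold this motif, which is its own reverse complement. A match describes the sequence and shows no binding.
Dusp1: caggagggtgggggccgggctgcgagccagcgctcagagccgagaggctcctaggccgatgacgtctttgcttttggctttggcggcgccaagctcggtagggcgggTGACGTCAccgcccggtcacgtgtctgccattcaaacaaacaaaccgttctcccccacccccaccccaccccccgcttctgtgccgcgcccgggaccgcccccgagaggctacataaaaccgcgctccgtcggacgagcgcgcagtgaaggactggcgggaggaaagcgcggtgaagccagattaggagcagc

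Jun and Fos, which encode the partners of the AP-1 transcription factor, had the array-to-array pattern most like that of Dusp1 among 7592 genes. Pearson's r over the 24 arrays was 0.970 for Jun and 0.952 for Fos, and 0.943 and 0.816 after each group's mean was subtracted. These are descriptions over arrays that share their groups and tags. Jun averaged 8.75 ± 0.49 in AE, 6.25 ± 0.90 in MT2, 7.67 ± 0.12 in NHA9 and 6.83 ± 0.37 in GFP cells (SD). In the sorted cells Jun averaged 10.14 ± 0.68 in L-GMP, 11.00 ± 0.86 in LSK and 8.78 ± 0.95 in untransduced GMP. GMP replicate 2 was the highest GMP array for all 3 genes, with 10.13 for Dusp1, 10.13 for Jun and 12.03 for Fos.

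**Figure D3:**
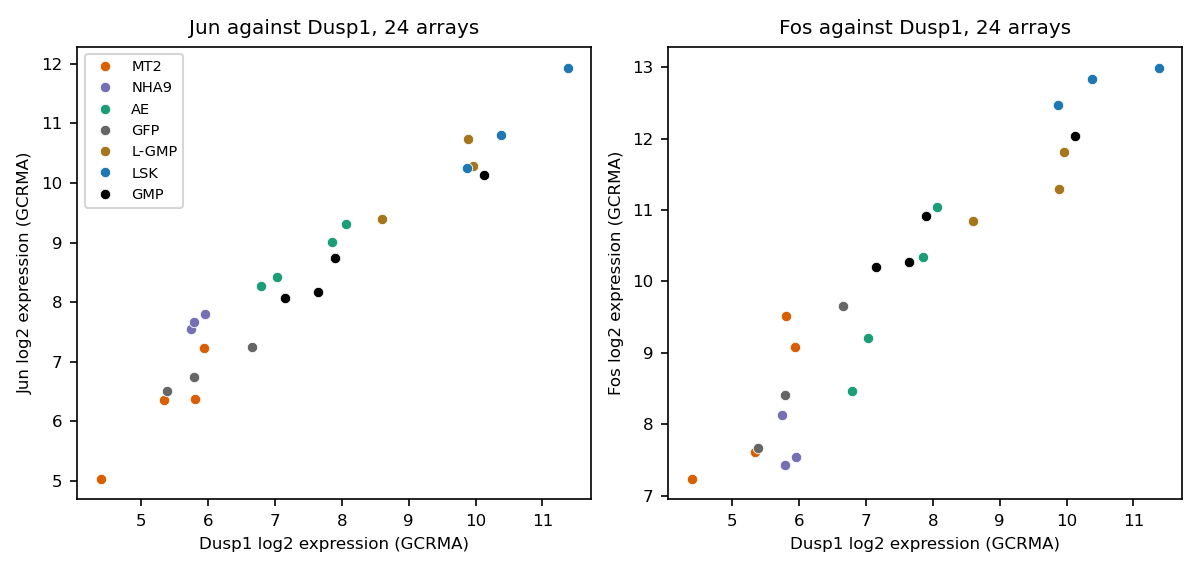
Log2 GCRMA level of Jun (left, vertical axis) and Fos (right, vertical axis) against that of Dusp1 (horizontal axis), one point per array, coloured by group. LSK arrays lie at the upper right and MT2, NHA9 and GFP arrays at the lower left, with r of 0.970 and 0.952.

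Dusp2 encodes PAC-1, a nuclear MAP kinase phosphatase of blood cells. Its levels were 6.73, 6.65, 6.90 and 6.68 in MT2, 5.10, 6.09 and 6.68 in NHA9, 6.84, 8.53, 9.13 and 8.07 in AE, and 6.86, 6.33 and 6.23 in GFP cells. They were 7.10, 9.52 and 8.73 in L-GMP, 8.32, 8.87 and 9.00 in LSK, and 7.07, 7.20, 7.27 and 6.92 in untransduced GMP. AE replicate 1 lay within the range of GFP and MT2, and the other AE arrays were above all GFP arrays. Every LSK array was above every GMP array, and every GFP array below. From high to low the means ran LSK, L-GMP, AE, GMP, MT2, GFP and NHA9, and only GMP and MT2 were neighbours with separate ranges.

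Dusp2 was 3.07-fold higher in LSK than in GMP (difference 1.62, SE 0.20, adjusted p = 0.00116), and this call held without each array in turn. GFP cells were 1.56-fold below GMP (difference -0.64, SE 0.19, adjusted p = 0.0477). That call was lost without GMP replicate 1 or 3 or GFP replicate 2 or 3 (adjusted p from 0.027 to 0.38 over the alternatives). L-GMP against GMP missed the threshold with all arrays (difference 1.34, SE 0.48, adjusted p = 0.175). Without L-GMP replicate 1, the array with the highest 3′ minus 5′ difference, it was 2.01 (adjusted p = 0.00208), and without GMP replicate 2 it was 1.37 (adjusted p = 0.236).

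Among the transduced cells, Dusp2 was 3.18-fold higher in AE than in GFP (difference 1.67, SE 0.44, adjusted p = 0.0408). NHA9 cells were 4.54-fold below AE (difference -2.18, SE 0.43, adjusted p = 0.00553) and MT2 cells 2.64-fold below AE (difference -1.40, SE 0.39, adjusted p = 0.0158). With tag A arrays alone the differences were 0.37 for AE against GFP (adjusted p = 0.351), -0.08 for MT2 against AE (0.871) and -1.24 for NHA9 against AE (0.0575). With the tag as a factor they were 1.32 (adjusted p = 0.0602), -1.17 (0.0261) and -2.23 (0.0094) in the same order. Over all alternatives these adjusted p-values ranged from 0.00102 to 0.351, from 0.000643 to 0.871 and from 0.000187 to 0.302. The AE against GFP call was kept only without AE replicate 1 when arrays were left out in turn, and the MT2 against AE call was lost only without AE replicate 3.

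Dusp6 encodes MKP-3, the cytoplasmic phosphatase of ERK. It was highest in L-GMP, with 8.26, 8.51 and 6.99, and in LSK cells, with 6.90, 7.06 and 8.16, against 5.30, 5.70, 5.91 and 6.15 in untransduced GMP. Both groups lay wholly above GMP and above every GFP array. The transduced cells sat close to the limit of detection, at 5.72 to 6.86 in MT2, 5.83 to 6.65 in NHA9, 5.38 to 6.68 in AE and 5.53 to 6.49 in GFP. Its group means ran L-GMP, LSK, AE, MT2, NHA9, GFP and GMP, and only LSK and AE were neighbours with separate ranges.

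Dusp6 was at least 4.04-fold higher in L-GMP than in GMP (difference 2.16, SE 0.37, adjusted p = 0.0127) and at least 2.76-fold higher in LSK (difference 1.61, SE 0.32, adjusted p = 0.0100). The L-GMP call was lost without L-GMP replicate 2 (adjusted p from 0.000457 to 0.339 over the alternatives), and it held without L-GMP replicate 1 at 1.99 (adjusted p = 0.0203). The LSK call held without each array. No Dusp6 difference among the transduced cells passed, with 0.30 in MT2 (adjusted p = 0.518), 0.28 in NHA9 (0.737) and 0.40 in AE (0.473) against GFP. GFP cells and untransduced GMP differed by 0.12 (adjusted p = 0.821).

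Spry2 encodes a Sprouty protein that restrains Ras signalling downstream of receptor tyrosine kinases. It had 7.88, 7.72, 8.04 and 8.73 in MT2, 7.41, 7.40 and 7.30 in NHA9, 7.87, 7.94, 8.06 and 8.28 in AE, and 7.46, 7.11 and 7.44 in GFP cells. MT2 and AE arrays all lay above NHA9 and GFP arrays. Sorted cells had 9.15, 6.47 and 6.76 in L-GMP, 7.19, 7.26 and 8.36 in LSK, and 7.07, 7.26, 7.16 and 7.57 in untransduced GMP. The value of 9.15 on L-GMP replicate 1 was the highest of the 24, and the other L-GMP arrays were the lowest. All neighbouring groups in the order of means overlapped.

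AE cells had 1.62-fold more Spry2 signal than GFP cells (difference 0.70, SE 0.16, adjusted p = 0.0238), and MT2 cells 1.65-fold more than NHA9 cells (difference 0.72, SE 0.20, adjusted p = 0.0383). MT2 against GFP was of similar size but missed the threshold (difference 0.75, SE 0.22, adjusted p = 0.0504). It passed without MT2 replicate 2 (0.88, adjusted p = 0.0389), without MT2 replicate 4, which leaves the tag A arrays (0.54, 0.0475), and with the trend and robust prior (0.75, 0.0427). NHA9 against GFP was 0.03 (adjusted p = 0.951). The AE call was lost without AE replicate 3 or any GFP array. It was also lost with tag A arrays alone, at 0.53, and with the tag as a factor, at 0.33 (adjusted p = 0.703, range 0.00775 to 0.703). The MT2 against NHA9 call was kept only without MT2 replicate 2 when arrays were left out (range 0.0262 to 0.571). In L-GMP against GMP the difference was 0.19 (adjusted p = 0.899). It was -0.65 (adjusted p = 0.094) without L-GMP replicate 1, and 1.99 (adjusted p = 0.031) with tag A arrays, where that replicate is the 1 L-GMP array. A second Spry2 probe set was under 60 on all 24 arrays.

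Spred1 encodes an inhibitor that brings the Ras inactivator neurofibromin to the membrane. It was highest in LSK cells, with 8.17, 8.12 and 8.17, against 7.09, 6.80, 7.58 and 7.76 in untransduced GMP, and L-GMP had 7.34, 7.16 and 7.18. In the transduced cells it had 7.32, 7.21, 7.40 and 7.53 in MT2, 7.51, 7.45 and 6.76 in NHA9, 7.58, 7.65, 7.47 and 7.78 in AE, and 6.98, 6.95 and 6.65 in GFP. GFP cells were the lowest group, and all MT2 and AE arrays lay above all GFP arrays. LSK lay apart from AE, the next group, and GFP from L-GMP, while the groups between overlapped and NHA9 replicate 3 and GMP replicate 2 reached into the GFP range.

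Spred1 rose 1.69-fold in AE (difference 0.76, SE 0.15, adjusted p = 0.0124) and 1.42-fold in MT2 (difference 0.50, SE 0.13, adjusted p = 0.0326) against GFP, and was 1.79-fold higher in LSK than in GMP (difference 0.84, SE 0.23, adjusted p = 0.0399). NHA9 against GFP was 0.38 (adjusted p = 0.553). On a second, dimmer Spred1 probe set MT2 passed as well (0.54, adjusted p = 0.0288), while AE (0.54, adjusted p = 0.088) and LSK (1.34, adjusted p = 0.0592) missed the threshold. The third was under 60 on all 24 arrays. Of the AE calls against GFP, Spred1 alone also passed with tag A arrays, at 0.72 (adjusted p = 0.0457, range 0.00627 to 0.107), but it was lost with the tag as a factor, at 0.54 (adjusted p = 0.0941), and without GFP replicate 2 or 3. The MT2 call was lost without MT2 replicate 1 or 4 or any GFP array (range 0.0327 to 0.216), and the LSK call without any LSK array or GMP replicate 1 (range 0.000366 to 0.159). Without GMP replicate 2, GFP against GMP passed as well, at -0.62 (adjusted p = 0.0286), against -0.45 (adjusted p = 0.251) with it.

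Socs3 encodes the inhibitor that binds gp130 and the G-CSF receptor and is induced by STAT3. On its brightest probe set it had 9.14, 10.12, 10.30 and 9.09 in MT2, 10.93, 10.89 and 10.27 in NHA9, 11.00, 10.94, 11.01 and 10.21 in AE, and 10.28, 10.26 and 10.47 in GFP cells. It had 7.32, 7.46 and 5.36 in L-GMP, 6.48, 7.55 and 7.91 in LSK, and 3.83, 4.55, 4.61 and 3.87 in untransduced GMP. All 14 transduced arrays were above all 10 sorted arrays, and all untransduced GMP arrays were under the limit of detection. The order of means was AE, NHA9, GFP, MT2, LSK, L-GMP and GMP, with separate ranges between MT2 and LSK and between L-GMP and GMP.

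GFP cells had at least 21.6-fold more Socs3 signal than untransduced GMP (difference 6.12, SE 0.23, adjusted p = 1.96e-06). GFP cells differ from untransduced GMP in the vector and in the 36 hours after transduction, which cannot be told apart. The call held in all 16 alternatives, with adjusted p-values from 1.69e-09 to 0.01. The probe sets 1416576_at and 1456212_x_at, the other probe sets of Socs3, gave 3.83-fold (difference 1.94, SE 0.29, adjusted p = 0.00237) and at least 6.97-fold (difference 4.61) for the same comparison. All 3 probe sets called the rise, and its size differed between them.

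Socs3 was also at least 2.65-fold higher in LSK than in GMP (difference 3.10, SE 0.35, adjusted p = 0.000792) and at least 1.75-fold higher in L-GMP (difference 2.50, SE 0.49, adjusted p = 0.0219) on the brightest probe set. On 1416576_at the same differences were 0.23 (adjusted p = 0.646) and -0.13 (adjusted p = 0.915), and the groups overlapped. That probe set read 6.07, 6.35 and 6.68 in LSK, 6.66, 6.31 and 5.03 in L-GMP, and 6.41, 6.81, 5.56 and 5.75 in GMP. On 1456212_x_at these comparisons were not tested. It read 4.86 to 6.74 in LSK and 5.04 to 6.30 in L-GMP, both overlapping the 3.39 to 5.34 in GMP. The LSK and L-GMP calls thus rest on the brightest probe set alone. The L-GMP call was lost without GMP replicate 1 or 4 (adjusted p from 0.000202 to 0.401), and it could not be tested without L-GMP replicate 1 or 2, which alone were over 60.

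Among the transduced cells, MT2 had 2.18-fold less Socs3 signal than AE (difference -1.13, SE 0.27, adjusted p = 0.00702) and 2.04-fold less than NHA9 (difference -1.03, SE 0.29, adjusted p = 0.0457). MT2 was also the lowest of the transduced groups on the other probe sets, apart from the rest on 1416576_at and overlapping NHA9 alone on 1456212_x_at. Against GFP, none of MT2 (-0.67, adjusted p = 0.145), NHA9 (0.36, 0.542) or AE (0.45, 0.187) passed on the brightest probe set. The MT2 against AE call held without each array in turn and with tag A arrays alone, at -1.14 (adjusted p = 0.0305, range 0.000821 to 0.122). The MT2 against NHA9 call was lost without MT2 replicate 1 or 4 or NHA9 replicate 1 or 2 (range 0.0193 to 0.254). AE against GFP passed without AE replicate 4, at 0.64 (adjusted p = 0.0296), and with tag A arrays alone, at 0.66 (adjusted p = 0.0433). MT2 against GFP passed without MT2 replicate 3, at -0.89 (adjusted p = 0.0468).

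**Figure D4:**
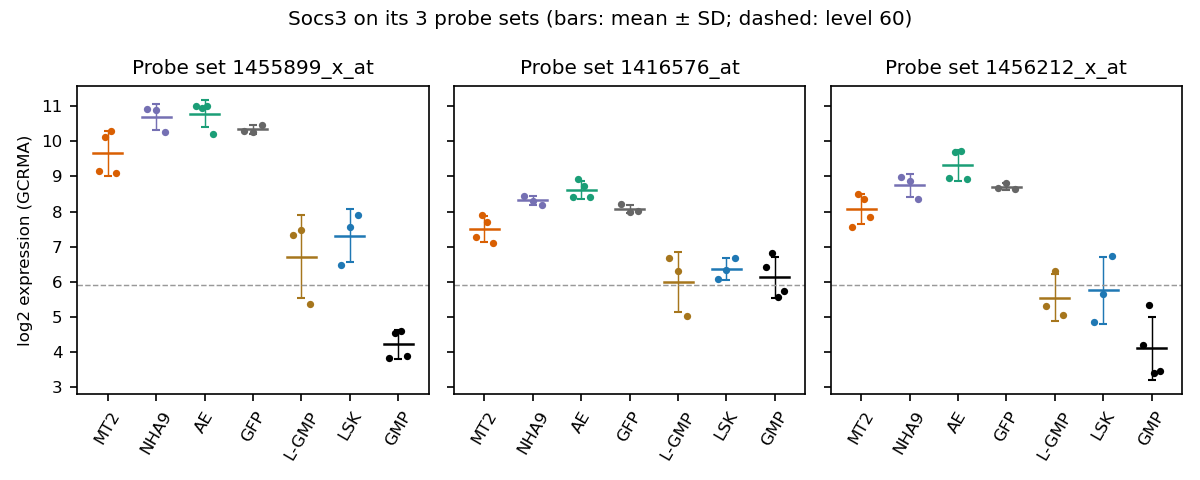
Log2 GCRMA level of Socs3 (vertical axis) on its 3 probe sets, by group (horizontal axis). Points are arrays, bars the group mean ± SD, and the dashed line is the level of 60. The transduced groups lie highest on all 3, while untransduced GMP lies apart from LSK and L-GMP on 1455899_x_at and overlaps them on 1416576_at.

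Cish encodes a STAT5-induced inhibitor that binds activated cytokine receptors. Its levels were 6.58, 6.82, 6.74 and 6.51 in MT2, 7.20, 7.49 and 6.51 in NHA9, 7.38, 7.05, 7.21 and 7.49 in AE, and 7.07, 7.29 and 7.07 in GFP cells. All MT2 arrays were below all GFP and AE arrays. Sorted cells had 7.25, 5.96 and 6.37 in L-GMP, 7.39, 7.59 and 7.04 in LSK, and 6.37, 6.83, 6.60 and 6.51 in untransduced GMP. LSK and GFP arrays all lay above the GMP arrays, and no neighbours in the order of means were apart.

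Cish fell 1.40-fold in MT2 against GFP (difference -0.48, SE 0.12, adjusted p = 0.0323) and 1.54-fold against AE (difference -0.62, SE 0.18, adjusted p = 0.0180). It was 1.69-fold higher in LSK (difference 0.76, SE 0.18, adjusted p = 0.0238) and 1.48-fold higher in GFP cells (difference 0.57, SE 0.16, adjusted p = 0.0400) than in untransduced GMP. NHA9 (-0.08, adjusted p = 0.920) and AE (0.14, adjusted p = 0.588) did not pass against GFP. The MT2 against GFP call was lost without MT2 replicate 1 or 4 or any GFP array (range 0.0233 to 0.36), and the MT2 against AE call without MT2 replicate 4 (range 0.00268 to 0.0518). The LSK call was lost without LSK replicate 1 or 2 or GMP replicate 1 or 3 (range 0.000157 to 0.131). The GFP against GMP call was kept only without GMP replicate 2 when arrays were left out, at 0.65 (adjusted p = 0.00458, range 0.00458 to 0.178).

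The promoters of Socs3 and Cish are shown because STAT proteins bind the palindrome TTCNNNGAA, which is its own reverse complement. It stood in the windows of these genes alone among the 9 members' windows, and in 8.3% of 32851 windows of the same length. The 9 windows include that of Dusp5, and no window was found for Socs2, so it was not searched. The Socs3 window lies at chr11:117969317-117969616 on the minus strand and holds 1 match, which begins 154 bases before the start. The Cish window lies at chr9:107296409-107296708 on the plus strand and holds 2 matches, at bases 1 and 12 counted from the start, and 0.457% of windows hold 2 or more. The sequences are from RefSeq (GRCm38.p6), with the matches in capitals. A match is no evidence of a bound factor.
Socs3: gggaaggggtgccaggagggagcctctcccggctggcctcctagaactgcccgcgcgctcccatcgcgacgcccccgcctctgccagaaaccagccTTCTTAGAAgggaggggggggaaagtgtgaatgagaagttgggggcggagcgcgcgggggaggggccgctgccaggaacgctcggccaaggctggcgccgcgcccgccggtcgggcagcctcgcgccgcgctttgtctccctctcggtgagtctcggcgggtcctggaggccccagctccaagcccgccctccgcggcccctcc
Cish: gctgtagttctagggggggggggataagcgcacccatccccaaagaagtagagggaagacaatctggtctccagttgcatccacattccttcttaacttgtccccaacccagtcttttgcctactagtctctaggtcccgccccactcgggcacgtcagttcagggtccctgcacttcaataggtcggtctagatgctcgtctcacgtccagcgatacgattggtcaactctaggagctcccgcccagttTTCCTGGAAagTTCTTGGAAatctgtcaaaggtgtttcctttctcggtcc

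Socs1, an inhibitor of JAK kinases and of interferon signalling, read between 3.65 and 5.48, under 60 on all 24 arrays. Socs2, a STAT5-induced inhibitor of growth hormone signalling, was over 60 on AE replicate 4 alone, at 6.13. LSK arrays had 5.46, 5.76 and 5.30 on that Socs2 probe set, against 3.93, 4.08, 3.77 and 3.83 in untransduced GMP, all under the limit. No difference is given for either gene.

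Markers of other cell types were read in the same groups. The 7 monocyte and macrophage markers averaged 9.42 to 9.46 per array in GFP cells and 8.64 to 9.26 in L-GMP, against 7.39 to 8.13 in untransduced GMP, and all 7 were over 60 in the mean of each of these groups. In LSK cells 3 of the 7 were over 60, at 6.86 to 7.22 per array, with Cd14, Adgre1, Cx3cr1 and Ccr2 under 60. This list was thus wholly higher in GFP cells and L-GMP and wholly lower in LSK than in GMP. Against GFP, it averaged 9.60 to 10.4 in AE and 9.69 to 10.2 in NHA9, both above the GFP range. Cx3cr1, over 60 in GFP cells, was under 60 in AE. In MT2 the list averaged 8.98 to 9.64, which overlapped the GFP range. The 8 mature neutrophil markers averaged 7.24 to 11.0 in L-GMP and 9.51 to 10.4 in LSK, against 9.96 to 10.6 in GMP. They averaged 8.94 to 9.88 in MT2 and 10.3 to 11.0 in AE, against 10.6 in GFP cells, so MT2 lay wholly below. The 6 megakaryocyte and platelet markers, of which Gp9, Gp1bb and Vwf were under 60 in AE, NHA9 and GFP cells, averaged 6.86 to 7.48 in AE and 6.47 to 6.73 in NHA9, against 5.67 to 6.22 in GFP. The 7 mast cell, basophil and eosinophil markers averaged 5.14 to 5.46 in GFP cells, 4.52 to 5.61 in L-GMP and 5.80 to 5.94 in LSK. All were below the 6.42 to 6.89 in untransduced GMP, but around or under the limit of detection. Of these 7 markers, 3 were over 60 in the mean in GFP cells, 2 in L-GMP, 3 in LSK and 4 in untransduced GMP. The 5 dendritic cell markers averaged 6.44 to 6.77 in GFP cells, below AE (6.78 to 7.51), NHA9 (7.13 to 7.44) and untransduced GMP (6.87 to 7.30). Of these 5, Cd209a was under 60 in every group, and Cd74 in GFP cells and untransduced GMP. Erythroid and lymphoid lists were read too and are not described. The part of these cells in the members' differences was not tested, and in bulk samples fewer cells of a type and less RNA per cell cannot be told apart.

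The phosphatases are themselves targets of the kinases they inhibit, so a list of ERK and immediate early target genes was read beside them. Of this list, 9 of 13 tested genes were higher in LSK than in GMP and 0 lower, with Egr1 9.42-fold higher. Of the same list, 6 of 13 were higher in AE than in GFP and 0 lower. Among them were Jun (3.78-fold higher), Junb (difference 1.38) and Ier2 (difference 1.10). Most AE arrays carried tag B and all GFP arrays tag A. Genes of this list and of the lists below were not rerun under the alternatives. The list's median difference was 1.43 in LSK and 1.10 in AE, against 0.06 and 0.10 over all tested genes. In L-GMP against GMP 3 of 13 were higher (Egr1, difference 2.80, Junb, 1.07, and Ier2, 0.93). In MT2 against GFP, Myc alone of 12 passed, 1.05 higher, and in NHA9 0 of 11. In GFP against GMP, 4 of the 11 were higher, among them Ier3 (2.18), Atf3 (2.22) and Mcl1 (1.23), and 3 were lower: Fos (-2.28), Jun (-1.95) and Myc (-1.03). Between oncogenes, 9 of 13 were lower and 1 higher in MT2 than in AE, and 5 of 13 lower in NHA9 than in AE.

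On the JAK-STAT side, 5 of 8 tested STAT5 target genes were higher in GFP cells than in GMP, among them Bcl6 (difference 1.86), Id1 (1.64) and Pim1 (1.48), while Ccnd2 was lower (-0.86). Stat3 was higher (0.78), the 1 of 9 tested JAK and STAT genes called there. Cytokine receptors were 5 higher and 1 lower of 13 in that comparison, with Csf2rb2, an IL-3 receptor chain, at least 4.40-fold higher and Kit lower (-1.50). In LSK against GMP, 1 STAT5 target gene was higher (Pim1, 1.27) and 2 lower of 8, while 2 of 11 receptors were higher, Flt3 (3.21) and Kit (1.26), and 3 lower, Il6ra (-1.72), Csf1r (-1.44) and Ifngr1 (-1.27). In L-GMP against GMP, 2 STAT5 targets were higher (Id1 and Gfi1) and Ccnd2 lower (-3.40), with Csf1r higher (1.65) and Kit lower (-2.25). Jak2 was lower in MT2 than in GFP (-0.49), the 1 of 10 JAK and STAT genes called there.

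Other inhibitors of these pathways were read from lists as well. Of 9 other MAPK phosphatase genes, 3 were tested in GFP against GMP, and Dusp3 (difference 2.04, 4.11-fold) and Dusp22 (1.18) were higher. Dusp16 was higher in AE than in GFP and in LSK than in GMP, each 1 of 4 tested, and Dusp3 was lower in MT2 than in GFP (-0.48), 1 of 3 tested. Of the other Sprouty and Spred group and related Ras inhibitors, Spry1 (1.12), Rasa3 (0.81) and Dok2 (0.79) were higher in LSK than in GMP, 3 of 7 tested, and Errfi1 (1.32) higher in AE than in GFP, 1 of 6. Of the other JAK-STAT inhibitors, the phosphatase genes Ptpn1 (1.66) and Ptpn6 (0.55) were higher in GFP cells than in GMP, 2 of 8, and Ptpn6 in L-GMP (1.38), 1 of 8. Pias3 was higher in AE than in GFP (0.89) and in LSK than in GMP (1.01), each 1 of 9. The stress sensor gene Gadd45g, of the p38 and JNK list, was 6.34-fold higher in AE than in GFP.

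The members did not share 1 pattern. Across the 24 arrays the highest correlations among them were 0.739 between Dusp1 and Dusp2, 0.632 between Dusp2 and Dusp6 and 0.627 between Dusp1 and Dusp6. The gene nearest in pattern to Dusp2 was Ier2 (r = 0.878), to Dusp6 Parp12 (0.850) and to Spry2 Cggbp1 (0.794). For Spred1 it was Mycbp2 (0.883), for Cish Cic (0.802) and for Socs3 Ddit4 (0.965). After the group means were subtracted, r with these genes was 0.532 for Dusp2, 0.658 for Dusp6 and 0.772 for Spry2. It was 0.723 for Spred1, 0.720 for Cish and 0.463 for Socs3. The second nearest were Rai14 (0.864), Oas1a (0.842), Fbxw11 (0.782), Dnlz (0.878), Ypel3 (0.798) and Neat1 (0.932) in the same order of members. These correlations are descriptions over 24 arrays that share groups and tags.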

How the data were processed

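Total RNA of the 24 samples was read on 1-colour Affymetrix arrays. The values analysed are the authors' deposited log2 expression values, which the submitters' processing notes and design text give as GCRMA 2.4.1 values of files from the MAS5 software; no count or read depth exists, and the number of arrays limits the precision. Of 22690 probe sets, 64 controls were left out. The platform annotation gave 1 symbol to 20380 of the other 22626, several to 691 and none to 1555, and a gene was named only from a probe set with 1 symbol.

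A probe set was tested where its linear value exceeded 60 on at least 2 arrays of a compared group. Each pair of groups was fitted with limma 3.58.1 (R 4.3.3), without a block, the oncogene groups among themselves in a fit of the 14 transduced arrays, and an F test used all 24. For each gene the brightest probe set, by its mean level on all arrays, was used. Folds against a group whose mean was under 60 are given as lower bounds against 60. Same-numbered arrays deviated together with correlations from -0.427 to 0.494, not over 0.1 in every pair, so the numbers were not taken as pairs. Deviations from the means of so few arrays cannot exclude that they were paired. The procedures were checked on simulated data. Alternatives were the methods' t-test, no filter, quantile normalization, 1 fit of all arrays, the tag as a factor, tag A arrays alone, a trend and robust prior, the mean of a gene's probe sets, a replicate block and each array left out.

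The members and all gene lists were chosen with earlier results of these data known. Named are all members, the 2 genes nearest to each in pattern by Pearson's r, and up to 3 genes per list, direction and comparison with the smallest adjusted p. Promoters are RefSeq windows, found for 9 of the 10 listed genes, all but Socs2.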

Additional observations from a re-analysis of the deposited data

Results flagged for a closer look

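One array stood apart from its group. Socs3 read 10.21 on AE replicate 4, the lowest of 4 arrays, and its gap to the nearest was 0.923 of the group's range, above Dixon's critical value of 0.829. It was the 1 array so marked among 27 sets of 4 arrays examined, each set being 1 member in 1 group. Chance marks about 1 set in 20, and the sets of different members share arrays.

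The levels of 5 members differed between oncogene groups by limma's test of the difference between these groups. The GFP arrays were part of that fit, but their levels do not enter the differences. MT2 minus NHA9 was 0.72 for Spry2 (adjusted p = 0.0383) and -1.03 for Socs3 (adjusted p = 0.0457). MT2 minus AE was -2.07 for Dusp1 (adjusted p = 0.000748), -1.40 for Dusp2 (0.0158), -1.13 for Socs3 (0.00702) and -0.62 for Cish (0.0180). NHA9 minus AE was -1.61 for Dusp1 (adjusted p = 0.0193) and -2.18 for Dusp2 (0.00553). Within tag A, where AE is 1 array, MT2 minus AE was -1.41 for Dusp1, -0.08 for Dusp2, -1.14 for Socs3 and -0.66 for Cish, and NHA9 minus AE was -0.94 for Dusp1 and -1.24 for Dusp2.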

How the results depend on the processing

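No called difference of a member changed sign under any alternative run. Of 26 called differences, 24 stayed called with a trend and robust prior, 22 of the 25 that could be tested with the mean of a gene's probe sets, 19 with quantile normalization, 18 without the filter, 16 each in 1 fit of all 24 arrays, with the tag as a factor and with the replicate block, 14 with tag A arrays alone and 2 with the methods' t-test (Socs3 in GFP against GMP and Cish in MT2 against AE). Members called in MT2 against GFP, 2 in the analysis reported, were 0 by the methods' t-test, in 1 fit of all arrays and with the tag as a factor, and 1 in 4 others: Cish with quantile normalization or the mean of probe sets, and Spry2, not called in the analysis reported, with tag A alone or the replicate block (adjusted p = 0.0333). In AE against GFP, 4 became 0 by the t-test, with the tag as a factor or with the replicate block, and 2 in 1 fit of all arrays (Dusp2 and Spred1) or with tag A alone (Spred1 and, newly, Socs3). Among those 4, Dusp2 was also lost without the filter and Spry2 with the mean of probe sets. In LSK against GMP, 6 became 0 by the t-test and 5 with the replicate block, which lost Dusp1. Dusp1 was also lost without the filter, with quantile normalization and with tag A alone. Spred1 was lost without the filter and with tag A alone, and Cish with quantile normalization. In L-GMP against GMP, 2 became 0 by the t-test and 1 with the mean of probe sets. In GFP against GMP, 4 became 1 by the t-test, without the filter or with quantile normalization, and 2 in 1 fit of all arrays, with the trend or with the replicate block. Dusp2 was also lost there with the tag as a factor, and Cish with tag A alone. Smaller changes in the counts of the other comparisons are not all listed. In MT2 against NHA9, 2 became 0 by the t-test, without the filter or in 1 fit of all arrays, 1 with the tag as a factor (Cish, newly), the mean of probe sets (Socs3) or the replicate block (Spry2), and 4 with tag A alone (Dusp2 and Cish newly). In MT2 against AE, 4 became 1 by the t-test and 2 with tag A alone. In NHA9 against AE, 2 became 0 by the t-test or with tag A alone and 1 in 1 fit of all arrays or with the tag as a factor. Leaving out each array in turn gave 0 to 3 members in MT2 against GFP, 0 to 4 in AE, 0 in NHA9 and with the oncogenes together, 3 to 6 in LSK against GMP, 0 to 3 in L-GMP, 1 to 5 in GFP against GMP, 0 to 2 in MT2 against NHA9, 3 to 4 in MT2 against AE, 1 to 3 in NHA9 against AE and 6 to 7 in the F test. Replicate numbers were not taken as pairs, but so few arrays per group cannot exclude pairing. With the block, Spred1 and Cish were lost in MT2 against GFP, and all 4 calls in AE against GFP. Dusp1 was lost in LSK against GMP, Dusp2 and Cish in GFP against GMP, and Socs3 in MT2 against NHA9. Taking the mean of the 3 oncogene groups, chosen after seeing the data, called 155 genes against GFP, where all oncogene arrays together called 0. Apart from the arrays left out and the fewer arrays of tag A, the cause of these changes was not tested.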
